A study of Homo sapiens with 6 samples.

Results

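The interferon-stimulated genes and nucleic acid sensors described here were 49 genes, named one by one and matched by symbol to the deposited count table, out of 58735 genes in that table. The table came from 6 RNA sequencing libraries of LN229, an established human glioblastoma cell line. In 3 libraries (HSD52_OE) the cells overexpressed HSD52, a long non-coding RNA, and in 3 libraries (control) they are labelled as wild type LN229. The sources used here do not say whether control cells carried an empty vector, how HSD52 was delivered, or whether the replicates of a group were separate cultures. Both groups are the same line, and no interferon, virus or drug is named for either group. A p-value below is read against the scatter of 3 libraries per group, and part of that scatter may be technical.

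Interferons are secreted signals of antiviral defence. Type I interferon binds the receptor chains IFNAR1 and IFNAR2, and the kinases beneath them activate a complex holding STAT2 and IRF9, which binds interferon response elements in the promoters of a large set of genes. Cells make interferon when sensors of foreign nucleic acid, such as RIG-I and MDA5 for RNA and the cGAS and STING route for DNA, signal through IRF3 and IRF7. Several of these sensors are themselves raised by interferon.

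HSD52 had 1252, 1336 and 1327 counts in HSD52_OE libraries and 11, 7 and 12 counts in control libraries, so every library went with its label. Library totals lay between 17777157 and 18917790 counts in HSD52_OE and between 18250494 and 18574853 counts in control. Before adjustment, 1 CPM, the unit of counts scaled to library size, thus stood for 17.8 to 18.9 counts. Levels below are CPM adjusted by TMM factors, and fold changes are log2 of HSD52_OE over control. Those factors were 1.0419 to 1.0476 in HSD52_OE and 0.9397 to 0.9871 in control, so 1 adjusted CPM stood for more counts in HSD52_OE libraries. Replicates of control were further apart than those of HSD52_OE: the chi-square per degree of freedom between pairs of libraries was 15.1 to 18.6 in control, against 2.23 to 3.51 in HSD52_OE. Summed CPM of 6 nuclear-retained transcripts (MALAT1 and NEAT1 among them) was 898 to 1131 in HSD52_OE and 360 to 386 in control, 5 of the 5 tested were higher, and MEG3 was at 0. The share of counts from mitochondrial genes was 3.33 to 3.53% in HSD52_OE and 2.64 to 3.38% in control. The glial and glioblastoma line markers summed to 2796 to 2848 CPM in HSD52_OE and 2939 to 3294 CPM in control, with VIM, NES and S100B abundant. Among astrocyte genes, AQP4 and SLC1A2 each averaged below 0.15 CPM. GFAP averaged 7.29 CPM in HSD52_OE and 4.83 CPM in control, and SLC1A3 7.60 and 11.1 CPM. Of 9 glial markers tested, GFAP and SOX2 were higher, S100B, SLC1A3, CD44 and EGFR were lower and 3 were not called. That is 66.7% called, beside 51.4% of all protein-coding genes tested. Leukocytes carry many of the listed genes, and 13 leukocyte markers summed to 21.7 to 28.3 CPM in HSD52_OE and 18.5 to 30.0 CPM in control. Of these, 4 were tested and CD53 was higher, with 19, 25 and 22 counts in HSD52_OE and 6, 0 and 4 in control. PTPRC and NKG7 were not tested, with 6, 7 and 6 and with 8, 5 and 6 counts in HSD52_OE, against 2, 0 and 1 and against 0, 3 and 2 in control. LAPTM5 and ITGB2 held most of the sum and were not called, and CD3E and AIF1 were among those at 0. The 7 epithelial markers summed to 179 to 190 CPM in HSD52_OE and 129 to 151 CPM in control. KRT8 and KRT18 were higher (log2 fold changes 0.97 and 0.33), and CDH1 and KRT5 were at 0. KRT14 went the other way without being called (-0.31, edgeR adjusted p = 0.0875), though its groups did not overlap. The part of these measures in the results below was not tested. In bulk libraries, fewer cells carrying a transcript and less of it per cell cannot be told apart.

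Of the 49 genes, 47 passed the filter on low counts. With edgeR's quasi-likelihood test and Benjamini-Hochberg adjustment over all 16322 genes tested, 27 of the 47 (57.4%) were called at an adjusted p under 0.05, beside 50.6% of all genes and 51.4% of the 13155 protein-coding genes tested. All 49 are protein-coding. The listed genes split into 15 higher (31.9%, beside 21.4% of protein-coding genes) and 12 lower in HSD52_OE (25.5%, beside 30.1%), and 20 were not called. A change of at least 2-fold was called upward for IFIT2, IFIT3, IRF9 and TRIM22 (8.51% of those tested, beside 5.83% of protein-coding genes) and downward for IFITM2 and BST2 (4.26%, beside 3.75%). The libraries of the groups did not overlap for 32 of the 47 (68.1%, beside 59.9% of protein-coding genes). The median log2 fold change was 0.13 over the 47 genes, -0.06 over protein-coding genes and 0.01 over all genes. The share called lies near the background, and the listed genes did not move in 1 direction: the families within the list differed in sign, as the plot of fold changes by subgroup shows.

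**Figure D1:**
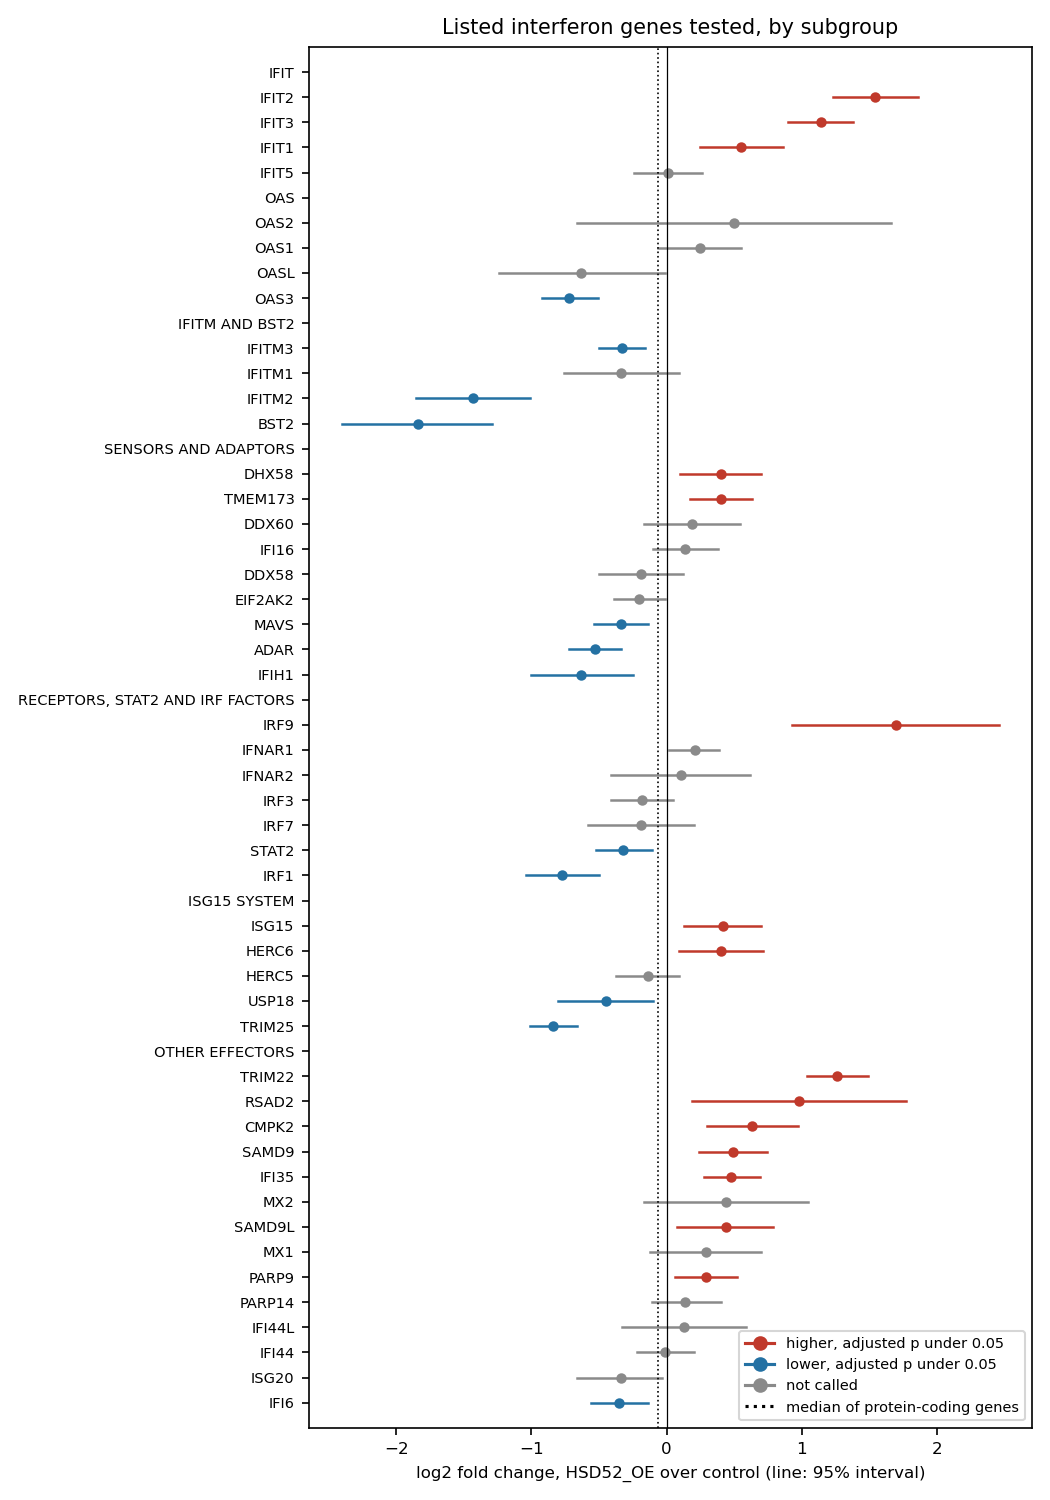
Log2 fold change, HSD52_OE over control, for the 47 listed genes tested, grouped by role, with 95% intervals as lines. The 3 called IFIT genes lie to the right of 0, the 4 IFITM and BST2 genes lie to its left, and the sensors, receptors and ISG15 system hold called genes on both sides.

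The IFIT family rose in HSD52_OE, apart from IFIT5. IFIT proteins bind viral RNA with foreign 5' ends and block its translation, and the 4 genes sit in a row on the plus strand of chromosome 10 (hg38). Of the 4, IFIT1, IFIT2 and IFIT3 were higher and none was lower, and the median log2 fold change was 0.85. Thus 75% were called, beside 51.4% of protein-coding genes. Summed over the family, the level was 70.1, 69.2 and 67.1 CPM in HSD52_OE libraries and 39.5, 37.2 and 44.5 CPM in control libraries.

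IFIT2 (ENSG00000119922, chr10:89283694-89309276) had 19.2, 19.9 and 17.9 CPM in HSD52_OE libraries and 6.36, 5.18 and 7.99 CPM in control libraries. Every HSD52_OE library was at more than 2-fold the highest control library. Its log2 fold change was 1.54 ± 0.15 (SE; edgeR adjusted p = 8.37e-07). IFIT3 (chr10:89327894-89340971), which stabilises IFIT1 on RNA, had 23.4, 24.9 and 23.2 CPM in HSD52_OE and 11.4, 9.68 and 11.3 CPM in control, a log2 fold change of 1.14 ± 0.11 (edgeR adjusted p = 1.24e-06). IFIT1 (chr10:89392546-89406486), which recognises RNA caps lacking 2'-O methylation, had 8.61, 8.01 and 8.68 CPM in HSD52_OE and 6.07, 5.58 and 5.61 CPM in control. The groups of both genes were apart in every library, and the change of IFIT1 was the smaller at 0.55 ± 0.14 (edgeR adjusted p = 0.00461).

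IFIT5 (chr10:89414586-89421001), which binds RNA with a 5' triphosphate, averaged 17.5 ± 1.24 CPM in HSD52_OE and 17.3 ± 2.07 CPM in control (SD, n = 3 each). The libraries of the groups overlapped, and the 95% interval of the log2 fold change ran from -0.24 to 0.26. Per kb of gene length, IFIT5 averaged 4.32 ± 0.516 and IFIT3 4.09 ± 0.368 CPM per kb in control cells, within each other's spread. IFIT2 was at 1.59 and IFIT1 at 1.25 there. In HSD52_OE cells IFIT3 was highest at 9.03 ± 0.343 and IFIT1 lowest at 1.83 CPM per kb. Between them, IFIT2 at 4.64 ± 0.247 and IFIT5 at 4.36 ± 0.309 had overlapping spreads. Of IFIT2's exon bases, 10.3% are also annotated to AL353751.1 or to LIPA on the opposite strand, and AL353751.1 had 3, 2 and 3 counts in HSD52_OE and 0, 1 and 0 counts in control. The annotated span of LIPA (chr10:89213569-89414557) runs over IFIT2, IFIT3 and IFIT1 and ends before IFIT5. IFIT1 and IFIT3 share no exon bases with LIPA, and its part in the IFIT counts was not tested. Within 300 kb of the cluster, 5 other protein-coding genes were tested: KIF20B, FAS and LIPA were higher (log2 fold changes 0.70, 0.33 and 0.28), ACTA2 was lower (-0.40) and PANK1 was not called. Among all protein-coding genes tested, 21.4% were higher and 30.1% lower.

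The IFIT promoters are shown because genes of the family with unlike fold changes share a sequence feature in them. An interferon response element was searched as GAAA, then any 2 bases, then GAAA, on both strands, in the 300 bases from 250 before to 50 after each start (RefSeq, GRCh38.p14). The 3 IFIT genes with an entry in that table all hold it: IFIT1 and IFIT3 of the genes that rose, and IFIT5, which was not called. In the 60-base stretches below, capitals mark every match. Matches begin at positions -116 and -103 of IFIT1 and at -45, -19 and -4 of IFIT5 relative to the start. IFIT3 has 2 annotated starts, with matches at -156 and -122 of the upstream one and at -94 and -51 of the downstream one; the stretch printed holds the match at -122, and that of IFIT5 the matches at -19 and -4. All are given 5' to 3' on the plus strand, where the element reads as its reverse complement.
IFIT1, chr10:89392482-89392541: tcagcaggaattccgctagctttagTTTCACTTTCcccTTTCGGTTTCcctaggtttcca
IFIT3, chr10:89327850-89327909: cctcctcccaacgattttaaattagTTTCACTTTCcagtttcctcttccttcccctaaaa
IFIT5, chr10:89414539-89414598: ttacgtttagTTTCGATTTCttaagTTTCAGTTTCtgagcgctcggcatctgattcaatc

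In contrast to IFIT, the OAS family had 1 called gene, and it was lower. OAS enzymes make 2',5'-linked oligoadenylate on double-stranded RNA, which switches on the ribonuclease RNase L. Of 4 genes 0 were higher, OAS3 was lower and 3 were not called, and the median log2 fold change was -0.19. Thus 25% were called, beside 51.4% of protein-coding genes. OAS3 (ENSG00000111331, chr12:112938352-112973249), the largest enzyme of the family, had 53.9, 49.2 and 50.4 CPM in HSD52_OE libraries and 95, 81.6 and 75.4 CPM in control libraries. Each HSD52_OE library lay below each control library, and the log2 fold change was -0.72 ± 0.10 (edgeR adjusted p = 2.07e-05). OAS3 held most of the family's counts, and the summed level averaged 60.9 ± 2.30 CPM in HSD52_OE and 92.9 ± 9.15 CPM in control.

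OAS1 (chr12:112906777-112933222), the next gene upstream, had 8.02, 8.17 and 8.23 CPM in HSD52_OE and 6.30, 6.55 and 7.71 CPM in control. Its groups did not overlap, but its log2 fold change of 0.25 ± 0.14 did not pass (edgeR adjusted p = 0.167). OASL, an OAS relative without the enzyme activity that enhances RIG-I signalling, had 0.969, 1.04 and 1.12 CPM in HSD52_OE and 1.58, 1.82 and 1.44 CPM in control. Its groups too were apart, with a log2 fold change of -0.63 ± 0.29 (edgeR adjusted p = 0.0834). OAS2 (chr12:112978395-113011723) had 10, 11 and 10 counts in HSD52_OE and 1, 9 and 10 counts in control, so 1 control library set its difference apart: its log2 fold change was 0.50 ± 0.55, and -0.00 without control replicate 1. Of the 8 other protein-coding genes tested within 300 kb of the cluster 4 were lower and 4 were not called. Among all protein-coding genes tested, 30.1% were lower.
The OAS3 promoter, shown as that of the called gene, holds the response element at positions -143 and -12, and the stretch around the first is printed, with capitals marking the match on the plus strand.
OAS3, chr12:112938306-112938365: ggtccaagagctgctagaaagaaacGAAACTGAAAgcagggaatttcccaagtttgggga

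The membrane restriction factors fell in HSD52_OE, apart from IFITM1, which was not called. IFITM proteins hinder the fusion of enveloped viruses with cell membranes, and BST2 (tetherin) holds budding virus on the cell surface. Of the 4 genes 3 were lower and none higher, and the median log2 fold change was -0.88. Thus 75% were called, beside 51.4% of protein-coding genes. IFITM3 (ENSG00000142089, chr11:319669-327537, minus strand) held most of the counts: it had 99.6, 98.5 and 96.1 CPM in HSD52_OE and 131, 118 and 121 CPM in control. The groups were apart, by a log2 fold change of -0.33 ± 0.08 (edgeR adjusted p = 0.00295), and over the alternatives tried the adjusted p ran up to 0.0404.

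IFITM2 (chr11:307631-315272) had 2.91, 3.07 and 4.82 CPM in HSD52_OE and 9.28, 11.3 and 8.55 CPM in control. BST2 (chr19:17402939-17405648, minus strand) had 2.96, 1.72 and 2.69 CPM in HSD52_OE and 9.63, 11.4 and 5.49 CPM in control. Neither gene's groups overlapped, though the control libraries of BST2 spread widely. The log2 fold changes were -1.43 ± 0.20 for IFITM2 and -1.84 ± 0.26 for BST2 (edgeR adjusted p = 2.85e-05 and 4.35e-05). IFITM1 (chr11:313506-315272) averaged 3.62 ± 0.612 CPM in HSD52_OE and 4.57 ± 0.743 CPM in control, and its groups overlapped (log2 fold change -0.34 ± 0.20, edgeR adjusted p = 0.175).

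IFITM1 and IFITM2 share exon sequence, and their counts are uncertain for it: of 100-base windows along their exons, 27.5% for IFITM1 and 18.2% for IFITM2 also occur in another gene, mostly in each other, and the annotated span of IFITM2 runs over IFITM1. For IFITM3 the share is 17.1%, or 230 of 1342 windows, of which 188 lie in the antisense gene AC136475.5, while 42 occur in IFITM1 and 21 in IFITM2. Within 300 kb of the IFITM genes and IRF7, which lie near the end of the short arm of chromosome 11, 33 other protein-coding genes were tested, and 18 were lower, 4 higher and 11 not called. Around BST2, 10 of 17 were lower, 4 higher and 3 not called. Among all protein-coding genes tested, 30.1% were lower and 21.4% higher. The neighbours' part in the lower values was not tested.
The promoters of IFITM3 and BST2 hold the response element at positions -52 and -35 and at positions -130 and -124, the BST2 matches overlapping each other. They are printed on the minus strand, the strand of both genes, with all matches in capitals. IFITM1, which was not called, holds it too.
IFITM3, chr11:320861-320920: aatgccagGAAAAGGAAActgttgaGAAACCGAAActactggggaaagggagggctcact
BST2, chr19:17405726-17405785: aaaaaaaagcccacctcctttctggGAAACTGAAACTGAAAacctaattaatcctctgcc

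**Figure D2:**
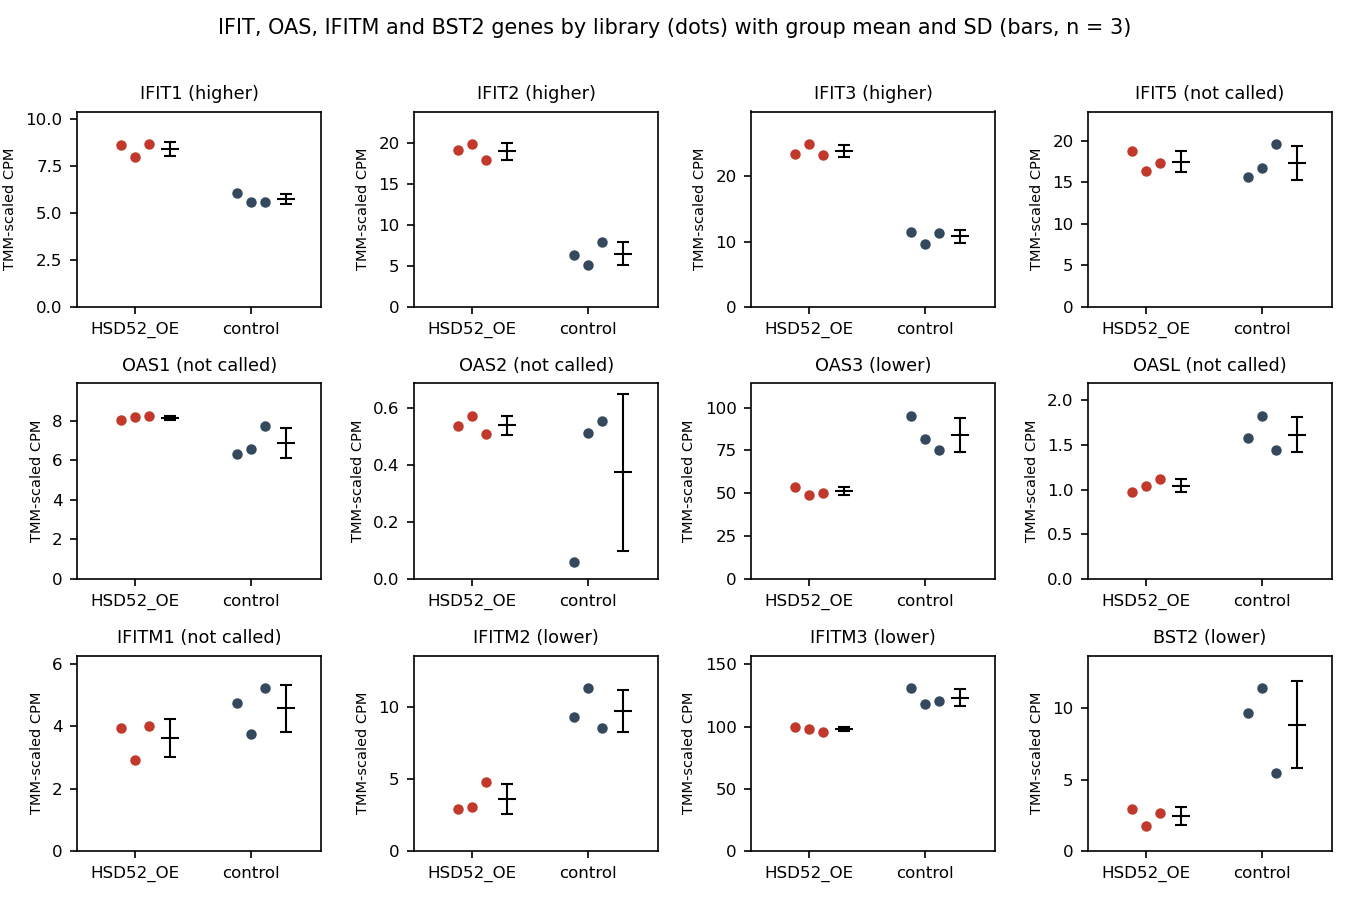
TMM-scaled CPM of each IFIT, OAS, IFITM and BST2 gene in each of the 3 HSD52_OE libraries (left) and 3 control libraries (right), with the group mean and SD. IFIT1, IFIT2 and IFIT3 lie higher in every HSD52_OE library, OAS3, IFITM2, IFITM3 and BST2 lie lower in every one, and IFIT5, OAS2 and IFITM1 overlap. OAS1 lies higher and OASL lower in every HSD52_OE library too, though neither was called.

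The called IFIT genes were higher, and the called OAS and IFITM genes and BST2 were lower. The 4 IFIT log2 fold changes ran from 0.01 to 1.54, those of the OAS genes from -0.72 to 0.50, and those of the IFITM genes with BST2 from -1.84 to -0.33. The IFIT and the IFITM with BST2 ranges do not meet. The difference between families was not tested, since the genes of a family are not replicates.

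Of the 9 sensors and adaptors 2 were higher, 3 lower and 4 not called. The share called, 55.6%, is near the 51.4% of protein-coding genes, and the median log2 fold change was -0.19. The 3 RIG-I-like receptors, RNA helicases that detect viral RNA, had 3 different outcomes. IFIH1, which encodes MDA5, the sensor of long double-stranded RNA, had 7.75, 6.81 and 7.72 CPM in HSD52_OE and 13.7, 8.08 and 12.7 CPM in control. Control replicate 2 stood close to the HSD52_OE libraries, although above them all, and the log2 fold change was -0.63 ± 0.18 (edgeR adjusted p = 0.00758; up to 0.0465 over the alternatives). DHX58, which encodes LGP2, a regulator of the other helicases, had 8.07, 8.69 and 8.89 CPM in HSD52_OE and 6.19, 6.66 and 6.60 CPM in control. Its groups were apart, with a log2 fold change of 0.40 ± 0.14 (edgeR adjusted p = 0.0263). This call was lost when a library was left out, with an adjusted p of 0.0553, 0.088 or 0.096 without HSD52_OE replicate 1, 2 or 3 and 0.0728 without control replicate 1. It was at 0.116 by DESeq2 and at 0.0981 with no low-count filter. DDX58, which encodes RIG-I, the sensor of 5' triphosphate RNA, had 7.80, 7.75 and 7.47 CPM in HSD52_OE and 9.69, 7.34 and 9.21 CPM in control. Its groups overlapped (log2 fold change -0.19 ± 0.15, edgeR adjusted p = 0.296).

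The mitochondrial adaptor of these helicases, MAVS, fell and the adaptor of DNA sensing, STING, rose. MAVS had 180, 180 and 190 CPM in HSD52_OE and 259, 231 and 206 CPM in control, with each HSD52_OE library below each control library (log2 fold change -0.34 ± 0.09, edgeR adjusted p = 0.00624; up to 0.0476 over the alternatives). TMEM173, the table's symbol for STING, had 38.3, 39.9 and 38.0 CPM in HSD52_OE and 33.4, 30.2 and 24.5 CPM in control. Here each HSD52_OE library lay above each control library, by a log2 fold change of 0.40 ± 0.11 (edgeR adjusted p = 0.00671). CGAS, the DNA sensor upstream of STING, was not tested: it had 2, 0 and 2 counts in HSD52_OE and 0 counts in all control libraries. IFI16, a nuclear DNA sensor, had 210, 220 and 228 CPM in HSD52_OE and 209, 159 and 230 CPM in control, with overlapping groups (log2 fold change 0.14 ± 0.11, edgeR adjusted p = 0.326).

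ADAR, which edits double-stranded RNA and thereby shields the cell's own RNA from MDA5, had 285, 284 and 285 CPM in HSD52_OE libraries and 452, 395 and 383 CPM in control libraries. The HSD52_OE values were nearly equal and all lay below control, with a log2 fold change of -0.53 ± 0.09 (edgeR adjusted p = 0.000194). EIF2AK2, which encodes PKR, a kinase that halts translation on double-stranded RNA, had 68.5, 66.8 and 72.5 CPM in HSD52_OE and 74.1, 76.0 and 88.1 CPM in control. Its groups did not overlap, yet its log2 fold change of -0.20 ± 0.09 did not pass (edgeR adjusted p = 0.0751). It passed without control replicate 1 or 2, at 0.0311 and 0.0424, and with no low-count filter, at 0.0462. DDX60, a helicase linked to RIG-I signalling, had 9.47, 9.83 and 9.34 CPM in HSD52_OE and 10.9, 6.66 and 7.60 CPM in control. Control replicate 1 was above and the other control libraries below HSD52_OE (log2 fold change 0.19 ± 0.17, edgeR adjusted p = 0.367), and without control replicate 1 the value was 0.40 with an adjusted p of 0.0399.

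The receptor chains and transcription factors held 1 higher and 2 lower genes among 7. The share called, 42.9%, is below the 51.4% of protein-coding genes. IRF9, the DNA-binding partner of STAT2, had 47, 34 and 51 counts in HSD52_OE and 20, 7 and 10 counts in control, which is 2.53, 1.77 and 2.59 CPM against 1.17, 0.398 and 0.555 CPM. All HSD52_OE libraries were above all control libraries, and the log2 fold change was 1.70 ± 0.36, with a 95% interval of 0.93 to 2.46 (edgeR adjusted p = 0.00109); it was 2.23, 1.41 and 1.54 without control replicate 1, 2 and 3. Of IRF9's exon bases 48.4% are also annotated to another gene. The overlapping AL136295.5 had 8, 15 and 8 counts in HSD52_OE and 5, 7 and 9 counts in control, and reads in shared bases cannot be assigned.

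STAT2, in contrast, was lower. It had 52.4, 54.0 and 51.2 CPM in HSD52_OE and 71.3, 56.6 and 68.5 CPM in control (log2 fold change -0.32 ± 0.10, edgeR adjusted p = 0.0114; 0.11 with library totals alone as scaling). IRF1, a transcription factor that also acts without interferon, had 12.4, 11.6 and 12 CPM in HSD52_OE and 24.3, 19.7 and 17.5 CPM in control. Its groups were apart, with a log2 fold change of -0.77 ± 0.13 (edgeR adjusted p = 0.000168).

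IFNAR1 averaged 83.1 ± 3.92 CPM in HSD52_OE and 72.0 ± 6.45 CPM in control and was not called (log2 fold change 0.21 ± 0.09, edgeR adjusted p = 0.0614). However, it was called without control replicate 3 (0.00767), with library totals alone (0.0079) and with protein-coding genes alone (0.0209). A filter of 1 CPM in 3 libraries gave the IFNAR1 call too (0.0379). IFNAR2 averaged 3.17 ± 0.824 CPM in HSD52_OE and 2.94 ± 0.672 CPM in control, with a 95% interval of the log2 fold change from -0.41 to 0.62, and 83.2% of its exon bases are shared with other annotated genes. IRF3 averaged 54.1 ± 1.24 CPM in HSD52_OE and 61.2 ± 10.3 CPM in control (edgeR adjusted p = 0.181, and 0.00359 without control replicate 3). IRF7, which amplifies type I interferon, averaged 7.27 ± 1.76 CPM in HSD52_OE and 8.30 ± 1.51 CPM in control (edgeR adjusted p = 0.414).

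**Figure D3:**
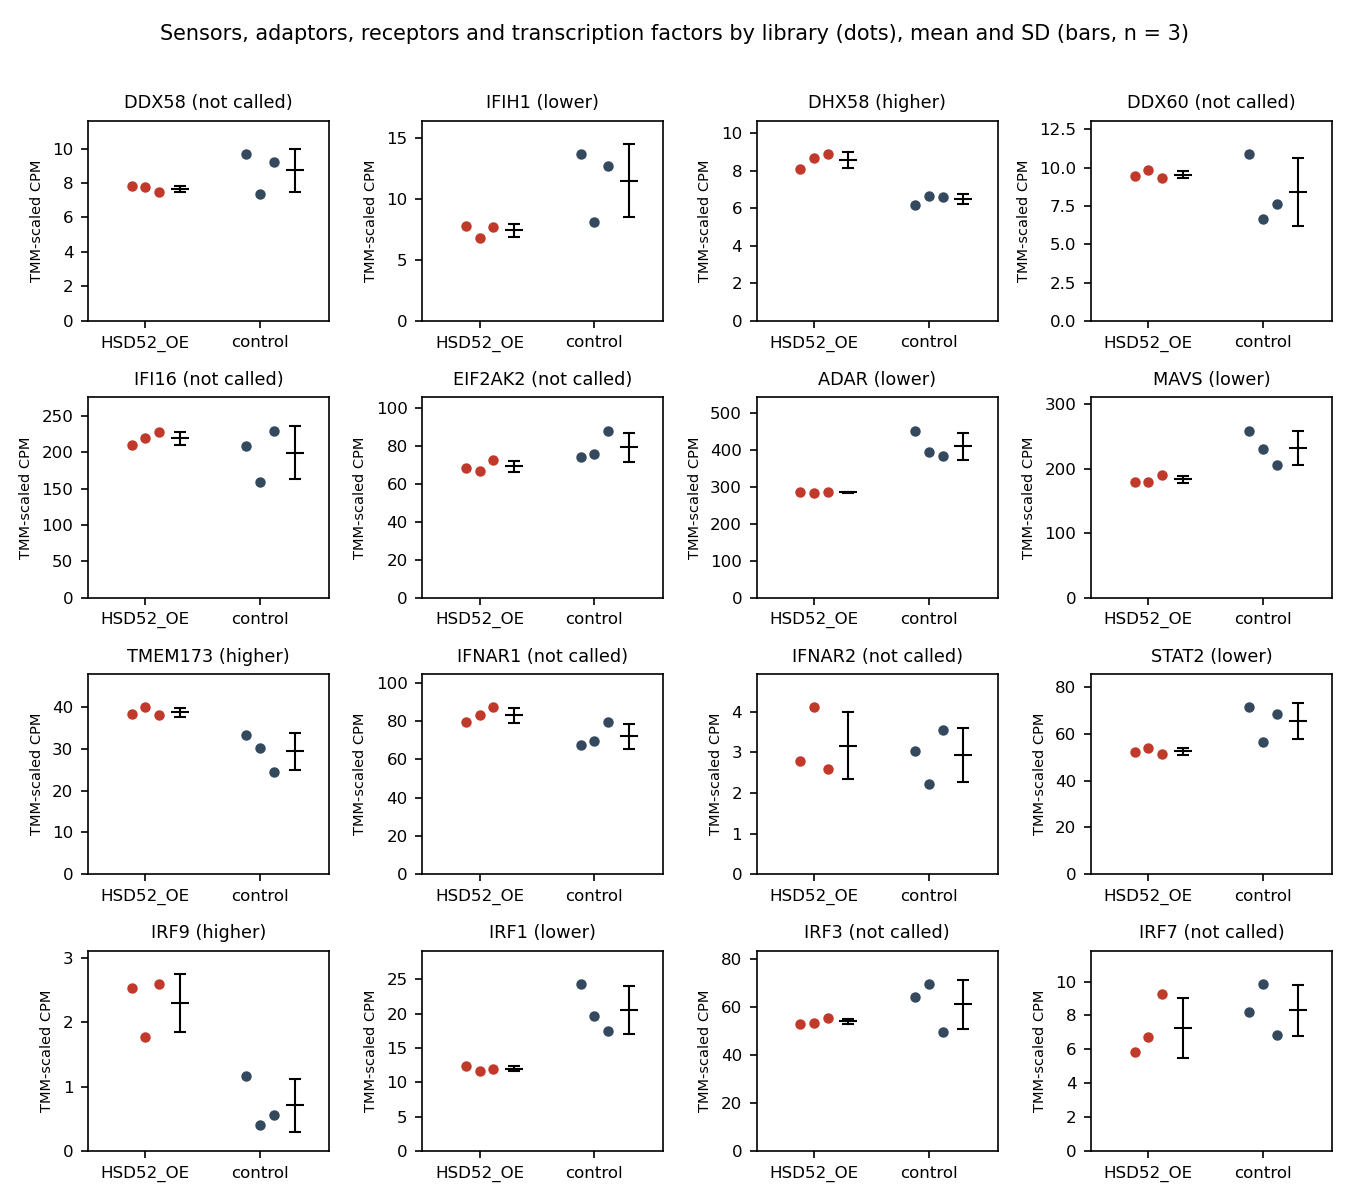
TMM-scaled CPM of the 9 sensors and adaptors and of the 7 receptors and transcription factors in each HSD52_OE library (left) and control library (right), with the group mean and SD (n = 3). IFIH1, ADAR, MAVS, STAT2 and IRF1 lie lower in every HSD52_OE library, and DHX58, TMEM173 and IRF9 lie higher in every one. EIF2AK2, which was not called, also lies lower in every HSD52_OE library.

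The ISG15 system attaches the ubiquitin-like protein ISG15 to other proteins, and its members moved in both directions: 2 of 5 were higher, 2 lower and 1 not called. That is 80% called in a small group, beside 51.4% of protein-coding genes. TRIM25, a ubiquitin ligase that acts on RIG-I and also transfers ISG15, had 58.3, 53.6 and 58.6 CPM in HSD52_OE and 107, 100 and 97.7 CPM in control. The groups were far apart compared with the spread of either (log2 fold change -0.84 ± 0.08, edgeR adjusted p = 1.21e-06). ISG15 averaged 16.2 ± 0.679 CPM in HSD52_OE and 12.2 ± 2.32 CPM in control, with no overlap (log2 fold change 0.42 ± 0.14, edgeR adjusted p = 0.0179). That call was lost by DESeq2 (0.0513) and without HSD52_OE replicate 3 (0.0702), control replicate 1 (0.0882) or control replicate 2 (0.0633).

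HERC6, a HECT-type ligase, averaged 9.50 ± 0.820 CPM in HSD52_OE and 7.20 ± 0.883 CPM in control (log2 fold change 0.40 ± 0.15, edgeR adjusted p = 0.0317). It was lost without HSD52_OE replicate 2 (0.11) or 3 (0.118) and without control replicate 1 (0.105) or 2 (0.0848). The HERC6 call was also lost by DESeq2 and with no low-count filter. USP18, which removes ISG15 and damps the interferon receptor, averaged 5.41 ± 0.349 CPM in HSD52_OE and 7.40 ± 1.29 CPM in control (log2 fold change -0.45 ± 0.17, edgeR adjusted p = 0.0318). It was lost without HSD52_OE replicate 1 (0.0813), 2 (0.0581) or 3 (0.102) and without control replicate 3 (0.127). The USP18 call was also lost by DESeq2, with library totals alone and with protein-coding genes alone. Of 100-base windows along USP18, 15.4% also occur in USP41, which itself was higher (log2 fold change 1.38 ± 0.30, edgeR adjusted p = 0.00147), so the USP18 value is uncertain. HERC5, the main ISG15 ligase in human cells, averaged 15.3 ± 0.476 CPM in HSD52_OE and 16.8 ± 0.737 CPM in control and was not called (edgeR adjusted p = 0.289).

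The remaining antiviral effectors leaned upward: of 16 genes 14 were tested, 7 were higher, IFI6 was lower and 6 were not called. The share called, 57.1%, lies near the 51.4% of protein-coding genes, and the median log2 fold change was 0.36. TRIM22, a nuclear ubiquitin ligase that restricts retroviruses (chr11:5689689-5737089), had 31.2, 29.9 and 29.7 CPM in HSD52_OE libraries and 13.2, 11.4 and 13.2 CPM in control libraries. The lowest HSD52_OE library was above the highest control library by more than 2-fold, and the log2 fold change was 1.26 ± 0.11 (edgeR adjusted p = 2.56e-07), the smallest p among the listed genes. TRIM5, which blocks retroviral capsids, was higher as well (0.58 ± 0.11, edgeR adjusted p = 0.000363), and its annotated span (chr11:5663557-5938619) runs over TRIM22. The nearby TRIM6 was not called.

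RSAD2 and CMPK2, next to each other on chromosome 2, act together: CMPK2 supplies CTP, which RSAD2 (viperin) converts to a chain terminator of viral RNA synthesis. CMPK2 had 10, 11.2 and 9.75 CPM in HSD52_OE and 5.55, 6.26 and 8.10 CPM in control (log2 fold change 0.63 ± 0.16, edgeR adjusted p = 0.00343). RSAD2 was near the lower limit, with 20, 28 and 19 counts in HSD52_OE and 14, 9 and 8 counts in control (log2 fold change 0.98 ± 0.37, edgeR adjusted p = 0.0389). Both pairs of groups were apart, but the RSAD2 call was lost without HSD52_OE replicate 1 (0.0756), 2 (0.176) or 3 (0.0525) and without control replicate 2 (0.101) or 3 (0.119). DESeq2 and the fit with no low-count filter lost it too.

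SAMD9 and SAMD9L, a neighbouring pair on chromosome 7 that restrict poxviruses, were both higher. SAMD9 averaged 33.6 ± 2.19 CPM in HSD52_OE and 23.9 ± 3.95 CPM in control (log2 fold change 0.49 ± 0.12, edgeR adjusted p = 0.00281). SAMD9L averaged 13.7 ± 1.81 CPM in HSD52_OE and 10.2 ± 2.50 CPM in control, and its groups overlapped (log2 fold change 0.44 ± 0.17, edgeR adjusted p = 0.0395). Its call was lost by DESeq2 and without HSD52_OE replicate 2 (0.114) or 3 (0.143) or control replicate 2 (0.171). IFI35 averaged 33.8 ± 2.14 CPM in HSD52_OE and 24.2 ± 1.19 CPM in control (log2 fold change 0.48 ± 0.10, edgeR adjusted p = 0.00072). PARP9, a partner in ADP-ribosylation of the interferon response, averaged 27.2 ± 2.23 CPM in HSD52_OE and 22.2 ± 2.34 CPM in control (log2 fold change 0.29 ± 0.11, edgeR adjusted p = 0.0354). Its call was lost without HSD52_OE replicate 1 (0.0704), 2 (0.0529) or 3 (0.185) and without control replicate 1 (0.0732) or 2 (0.12). The PARP9 call was also lost by DESeq2 and with no low-count filter.

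IFI6, a small protein that protects against flaviviruses, ran the other way, with 26.1, 26.2 and 29.6 CPM in HSD52_OE and 37.5, 33.6 and 33.5 CPM in control (log2 fold change -0.35 ± 0.10, edgeR adjusted p = 0.00721; 0.0666 with library totals alone). MX1, a dynamin-like GTPase that is among the most used markers of an interferon response, averaged 3.53 ± 0.202 CPM in HSD52_OE and 2.88 ± 0.152 CPM in control. Its groups did not overlap, but it did not pass (log2 fold change 0.29 ± 0.19, 95% interval -0.12 to 0.70, edgeR adjusted p = 0.226). MX2, PARP14, IFI44L, IFI44 and ISG20 were not called either, with log2 fold changes of 0.44, 0.14, 0.13, -0.01 and -0.34, and ISG20 passed without control replicate 3 (adjusted p = 0.0487). XAF1 had 2, 5 and 0 counts in HSD52_OE and 0, 3 and 1 counts in control, and IFI27 had 11, 10 and 3 counts in HSD52_OE and 2, 13 and 9 counts in control. Neither was tested, and at this depth a difference in them was not detectable: the ratio of counts, with an exact binomial 95% interval that covers counting error only, was 1.75 (0.444 to 8.14) for XAF1 and 0.998 (0.543 to 1.84) for IFI27.

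Levels of the listed genes differed far more between genes than between groups. Per kb of gene length, IFITM3 was highest at 72.7 ± 1.32 CPM per kb in HSD52_OE and 91.4 ± 5.26 in control. In control it was followed by ADAR at 42.3 ± 3.82, IFI6 at 40.3 ± 2.60 and IFI16 at 37.7 ± 6.88 CPM per kb, 3 genes whose spreads overlap. At the other end, OAS2, IFI27 and XAF1 averaged 0.0861, 0.102 and 0.0185 CPM per kb in HSD52_OE and 0.0599, 0.109 and 0.0114 in control. All 49 together took 0.168 to 0.172% of counts in HSD52_OE and 0.165 to 0.184% in control.

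The wider pathway was read from 5 further lists of 89 genes, of which 62 were tested, 11 were higher and 23 lower. No interferon ligand could be tested. Of 21 ligand genes 17 were at 0 in all 6 libraries, IFNB1 among them, which allows up to 3 counts a library, or 0.159 to 0.169 CPM before TMM adjustment. IFNE, a constitutive epithelial interferon, had 5, 5 and 6 counts in HSD52_OE and 4, 5 and 7 counts in control.

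In the list of 8 genes of receptor signalling, 1 was higher and 3 were lower. The chains of the interferon gamma receptor went opposite ways: IFNGR1, which binds the ligand, averaged 30.6 ± 1.34 CPM in HSD52_OE and 23.0 ± 2.59 CPM in control (log2 fold change 0.41 ± 0.11, edgeR adjusted p = 0.00399). IFNGR2, the signalling chain, averaged 81.2 ± 3.55 CPM in HSD52_OE and 121 ± 12.8 CPM in control (-0.57 ± 0.09, edgeR adjusted p = 9.44e-05). JAK1, the kinase shared by interferon receptors, was lower (-0.30 ± 0.09, edgeR adjusted p = 0.00931), but not without HSD52_OE replicate 1 or 2 (0.0547 and 0.0534) or with library totals alone (0.0972).

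Of 10 tested genes of the induction route, 2 were higher and 3 lower. TICAM1, the adaptor TRIF of endosomal TLR3, averaged 11.5 ± 0.736 CPM in HSD52_OE and 25.2 ± 2.81 CPM in control (log2 fold change -1.13 ± 0.12, edgeR adjusted p = 2e-06). TRAF3, which links MAVS and TRIF to the kinases of IRF3, averaged 61.3 ± 3.09 CPM in HSD52_OE and 105 ± 8.92 CPM in control (-0.78 ± 0.09, edgeR adjusted p = 4.22e-06). IKBKE, such a kinase, was lower by less (-0.36 ± 0.11, edgeR adjusted p = 0.01), and its call was lost without HSD52_OE replicate 1 (0.0532) and with library totals alone (0.0767). TRAF6, which feeds NF-kB, was higher (0.62 ± 0.12, edgeR adjusted p = 0.00072).

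Of 11 tested negative regulators, 2 were higher and 4 lower. RNF125, a ubiquitin ligase that marks RIG-I, MDA5 and MAVS for degradation, averaged 108 ± 6.88 CPM in HSD52_OE and 18.4 ± 4.93 CPM in control, a log2 fold change of 2.55 ± 0.14 (edgeR adjusted p = 1.96e-08). SOCS3, a feedback inhibitor of JAK kinases, averaged 52.6 ± 2.67 CPM in HSD52_OE and 116 ± 16.7 CPM in control (-1.14 ± 0.10, edgeR adjusted p = 4.49e-07). IRF2, which competes with IRF1 for its sites, and SAMHD1, which depletes deoxynucleotides, were lower, with log2 fold changes of -0.53 ± 0.09 and -0.55 ± 0.10 (edgeR adjusted p = 0.000271 and 0.000475). Of 33 further interferon-stimulated genes tested, 6 were higher and 13 lower (57.6% called). With library totals alone the counts were 10 higher and 4 lower, and 8, 7 and 8 were lower without HSD52_OE replicate 1, 2 or 3. PML, the scaffold of nuclear bodies, averaged 55.5 ± 2.36 CPM in HSD52_OE and 104 ± 7.26 CPM in control (-0.91 ± 0.09, edgeR adjusted p = 6.85e-07). RTP4, a chaperone of membrane receptors, averaged 4.20 ± 0.190 CPM in HSD52_OE and 1.27 ± 0.042 CPM in control (1.72 ± 0.22, edgeR adjusted p = 1.42e-05). APOL1, a secreted trypanosome-lytic protein, averaged 16.0 ± 0.981 CPM in HSD52_OE and 7.60 ± 2.38 CPM in control (1.07 ± 0.17, edgeR adjusted p = 0.000107).

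Of the 49 genes, 37 had an entry in the RefSeq promoter table, and 22 of these (59.5%) held the response element defined above within the 300-base window, beside 1195 of the 27305 genes in that table (4.38%). Matches may overlap each other. By outcome, 6 of 11 genes that were higher held it, 5 of 10 that were lower and 10 of 14 that were not called. By role, it was found in 3 of 3 IFIT, 1 of 2 OAS, 3 of 3 IFITM and BST2, 3 of 7 sensor, 2 of 4 ISG15 system and 10 of 14 other effector promoters, and in 0 of 4 of the receptors and transcription factors. A match is a description of the letters in this window and not evidence of binding.

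Of the 27 called genes, 18 were called in the same direction under every one of 14 alternative settings: IFIT1, IFIT2, IFIT3, TMEM173, IRF9, CMPK2, SAMD9, TRIM22 and IFI35 were higher, and OAS3, IFITM2, IFITM3, BST2, IFIH1, ADAR, MAVS, IRF1 and TRIM25 were lower. The other 9 lost the call under at least 1 setting.

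**Figure D4:**
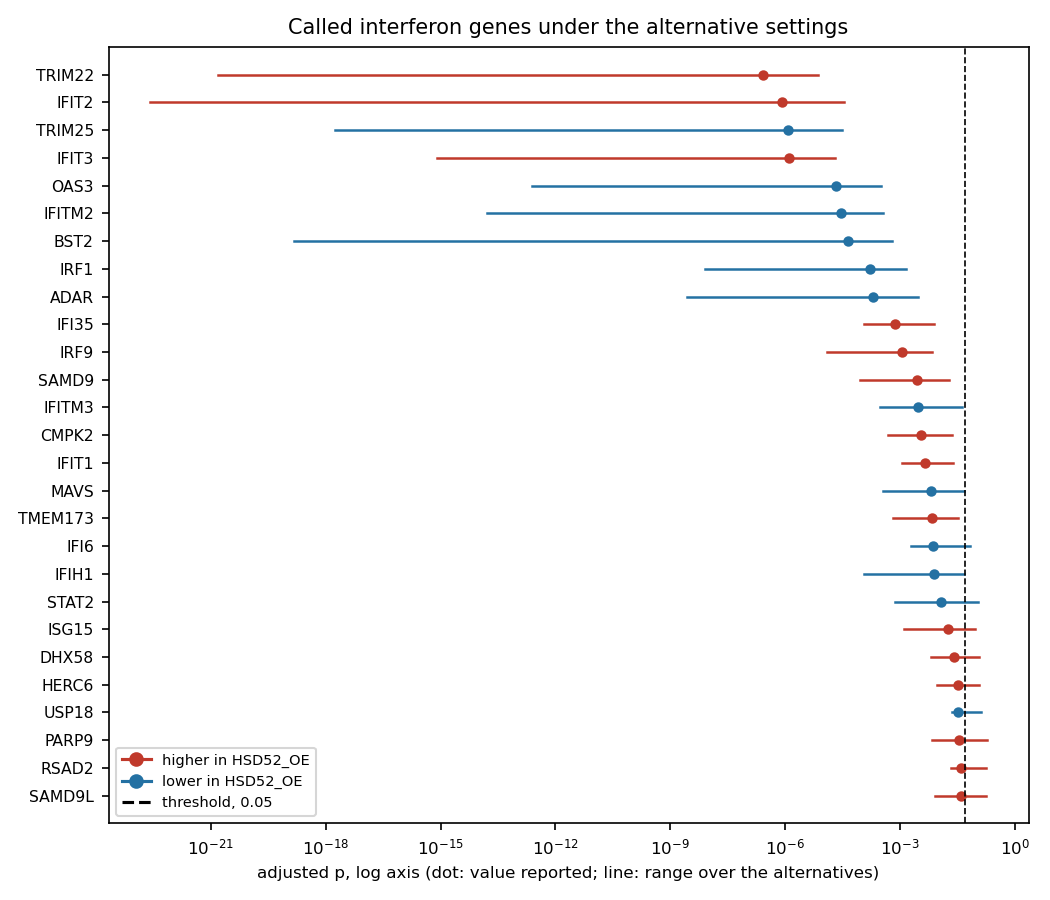
Benjamini-Hochberg adjusted p (log axis) of each of the 27 called genes: the dot is the value reported and the line its range over 14 alternative settings, with the threshold of 0.05 dashed. The lines of 18 genes end left of the threshold, and those of the other 9 cross it.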

How the data were processed

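RNA was measured in 3 HSD52_OE and 3 control libraries of LN229 cells. Per the labels' protocols, poly-A RNA was selected before Illumina NovaSeq sequencing. The deposited values are raw whole-number counts per gene that the authors made, per the submitters' processing notes, with CASAVA, HISAT2 2.0.5 (hg38) and featureCounts 1.5.0-p3. The sources used here give no strand setting or annotation release, so reads of overlapping and antisense genes cannot be told apart.

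Genes passing filterByExpr were tested with edgeR 4.0.16 (R 4.3.3, limma 3.58.1): TMM scaling, robust quasi-likelihood fit, group alone as design, 2-sided, Benjamini-Hochberg adjustment over all 16322 genes, threshold 0.05. The steps were tested on simulated data in which few genes changed, none of them at low counts. That run does not cover low-count members or data with 50.6% of genes called. CPM means have SDs over 3 libraries. The members and lists were chosen with earlier results of these data known. Values per library were set out for IFIT, OAS, IFITM, BST2 and sensor genes and for other called members with an absolute log2 fold change of at least 0.58; values per library of STAT2 and IFI6 were added after seeing them. At most 4 genes with the smallest p were named per further list, plus IFNB1 and, chosen after their values were seen, CGAS, IFNE, USP41 and neighbours. A result that the rule also names is not reported here. Shared exon bases were computed with GENCODE 29, whose start and end matched 58724 table genes. Alternatives were a replicate block, leaving out each library, limma-voom, DESeq2 1.42.0, RLE factors, library totals, a filter of 1 CPM in 3 libraries, no filter, and protein-coding genes alone. PCR reads without molecular identifiers are not independent molecules, so count intervals and limits cover counting error only.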

Additional observations from a re-analysis of the deposited data

How the results depend on the processing

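Over all tested members and 14 alternatives, 590 of 657 values kept their direction and side of the threshold, and 0 called values changed sign. Members called ranged from 20 to 28 (27 as reported). The number of members called higher (15 as reported) was 9 by DESeq2 and 9 to 15 with a library left out, the 9 without HSD52_OE replicate 3; these counts can include members newly called. Library totals alone moved the median of all genes to 0.13, against 0.01 with TMM, and the calls over all genes to 5337 higher and 2933 lower, against 4086 and 4173 with TMM. The OAS median (-0.19) was -0.07 with library totals, -0.60 with at least 1 CPM in 3 libraries, where OAS2 was not tested, and -0.32 to -0.16 with a library left out. The median of the other effectors (0.36) was 0.49 with library totals and 0.24 to 0.40 with a library left out. The cause was not tested where none is given.

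A replicate block changed no member's call (27 called, 15 higher and 12 lower) and gave 8436 calls over all genes, beside 8259. Correlations between same-numbered libraries were 0.038, 0.031 and 0.033, too low to pair them, although each library correlated best with its own number. At about 18 counts per CPM, members near 1 CPM such as OAS2, RSAD2 and IRF9 rest on few reads.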
